A study of Mus musculus with 9 samples.

Results

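The Hox genes of mouse are homeobox transcription factor genes that lie in 4 clusters, Hoxa on chromosome 6, Hoxb on 11, Hoxc on 15 and Hoxd on 2. Members were taken as every gene whose probe set carried 1 gene symbol made of Hox, a cluster letter and a paralogue number. This gave 37 genes of 19661 measured, each read by 1 probe set. Hoxb8 was read only by a probe set shared with Hoxb7, which is described at the end of the Hoxb results.

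The cells were myoblasts from skeletal muscle of Balb/c background, the dividing precursors of muscle fibres, grown in F10 medium containing 20% serum with bFGF (basic fibroblast growth factor, 4 ng/ml). RNA from 3 groups was hybridised to 9 arrays, 3 for each. The control carried an empty vector (labelled CTAP control), and the other groups overexpressed Pax3 or Pax7, paired-box transcription factors of muscle precursors. All groups shared strain background and medium. The sources used here do not give the vector, its promoter or the number of clones. Whether a group's 3 samples were separate cultures is not said in the labels, so each p-value reflects the spread among these samples alone, which may be technical.

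Hox genes give cells of the embryo their position along the head-to-tail axis and along the limb. Within a cluster, genes with low paralogue numbers act towards the head and are switched on early, and genes with high numbers act towards the tail or the tip of the limb. Genes of one number in different clusters are paralogues with related roles. Cultured myoblasts and fibroblasts are known to keep a Hox pattern that reflects the place in the body from which they came. Hox proteins bind DNA together with Pbx, Meis and Pknox proteins, and Polycomb and Trithorax complexes hold the clusters in silent or active states.

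The overexpressed genes read as labelled. In log2 intensity, Pax3 averaged 5.83 ± 0.07 with the empty vector, 11.05 ± 0.05 with Pax3 and 6.82 ± 0.04 with Pax7 (SD, n = 3 each). Pax7 averaged 10.51 ± 0.08, 8.18 ± 0.06 and 12.28 ± 0.03 in the same order. All 10 myoblast markers lay above background in at least 1 group, with Myod1 at 12.62, 12.50 and 12.18. Of these markers, 3 were higher and 5 lower with each factor (80% called, beside 39.6% of all genes with Pax3 and 43.2% with Pax7). The list includes Pax7 itself, which counts as lower with Pax3 and, as the overexpressed gene, as higher with Pax7. With Pax3 and then Pax7, Myf5 was at log2 fold changes of 1.97 and 2.02, Vcam1 at 0.88 and 0.62, Cdh15 at -0.73 and -0.65, Itga7 at -0.47 and -0.70 and Des at -0.52 and -1.33. The control arrays differed from both other groups in sex-linked genes. Xist, which is expressed from an inactive X chromosome, read 4.62 to 4.85 with the empty vector, 11.90 to 12.04 with Pax3 and 11.70 to 11.76 with Pax7. Eif2s3y, a gene of the Y chromosome, was at 8.74 to 8.81 in control arrays and between 3.07 and 3.13 in the 6 other arrays, and Uty and Kdm5d had the same pattern. By these genes, the control arrays read as male cells and the Pax3 and Pax7 arrays as female cells. In the comparisons with control, an effect of Pax3 or Pax7 therefore cannot be told apart from any other difference between these cell populations. The Pax3 and Pax7 arrays carried no contrast of this size. Pax7 minus Pax3, the log2 difference was -0.24 for Xist (limma adjusted p = 0.0262) and -0.04 for Eif2s3y (limma adjusted p = 0.635). For both genes the arrays of these 2 groups did not overlap. Background was taken as the 95th percentile, 5.52, of the group means of 1186 olfactory and vomeronasal receptor genes, called the receptor level here. Of the Hox genes, 35 lay above this level in at least 1 group, and Hoxd3 and Hoxd12 lay above it in none.

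Most Hox genes differed between each Pax group and control, and more were lower than higher. With Pax3, 28 of 37 Hox genes passed the threshold (limma, Benjamini-Hochberg adjusted p under 0.05 over 19661 genes), 8 of them higher and 20 lower. Of all genes tested, 39.6% passed, 19.8% higher and 19.7% lower. With Pax7, 26 Hox genes passed, 7 higher and 19 lower, beside 43.2% of all genes, 21.6% higher and 21.5% lower. The median log2 fold change of the Hox genes was -0.33 with Pax3 and -0.19 with Pax7, beside 0.02 and 0.03 over all genes. The values of the 3 arrays did not overlap between groups for 27 Hox genes with Pax3 and 30 with Pax7, where 45.1% and 55.5% of all genes did not overlap. A called change of at least 1 log2 unit was found in 4 Hox genes with Pax3 and 5 with Pax7, beside 4.8% and 6.58% of all genes. When limma tested against a fold change of 1.2 in place of no change, 5 Hox genes were higher and 13 lower with Pax3, beside 16.6% of all genes in either direction. With Pax7, 4 were higher and 13 lower, beside 19.4%.

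The 2 comparisons share the 3 control arrays, so their results are given side by side and not as support for each other. Where a pair of values follows a gene, it gives the log2 fold change with Pax3 and then with Pax7. Hoxa7, Hoxa9, Hoxc8, Hoxd4, Hoxd8 and Hoxd9 were higher with both factors. The genes that were lower with both numbered 19, and no Hox gene was called in opposite directions. Hoxd10 and Hoxd13 passed as higher with Pax3 and did not pass with Pax7, Hoxc12 passed as lower with Pax3 and not with Pax7, and Hoxc11 passed as higher with Pax7 and not with Pax3. Between Pax7 and Pax3, Hoxd13 and Hoxc11 differed past the threshold, and Hoxd10 and Hoxc12 did not (limma adjusted p of 0.582 and 0.133). The genes that passed in neither were Hoxa2, Hoxb1, Hoxb13, Hoxc4, Hoxd1, Hoxd3, Hoxd11 and Hoxd12.

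**Figure D1:**
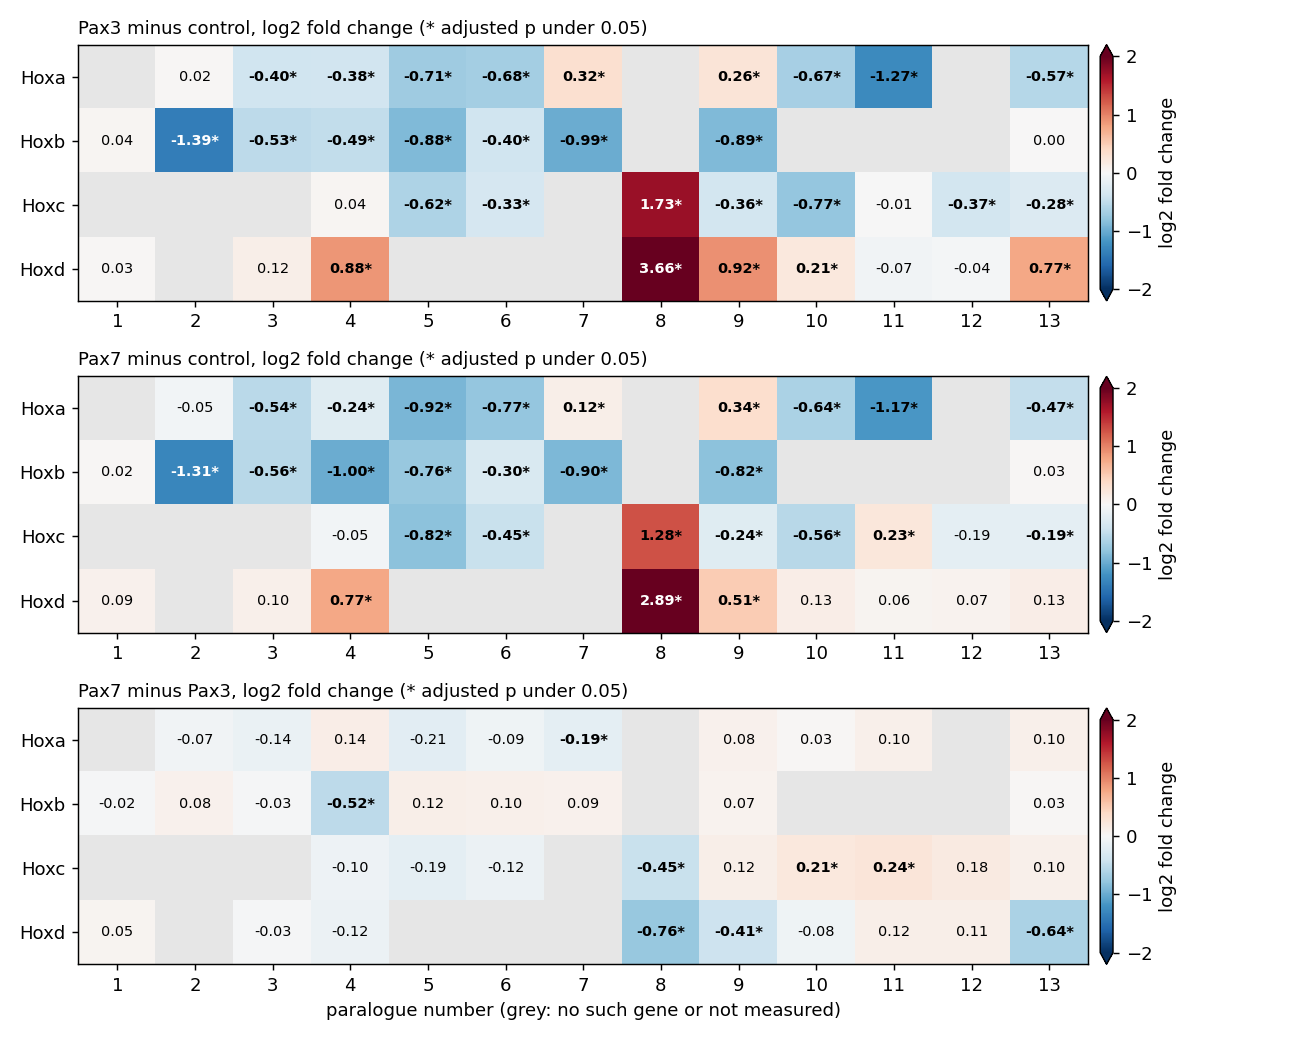
Log2 fold change of each Hox gene, with clusters as rows, paralogue numbers as columns and 1 panel per comparison (n = 3 arrays per group). An asterisk marks an adjusted p under 0.05, grey marks a gene that does not exist or was not measured, and colours saturate at 2. The Hoxb row is lower or near 0 in both upper panels, and the called genes of the Hoxd row are higher, led by Hoxd8 at 3.66 and 2.89. Hoxd1, Hoxd3, Hoxd4, Hoxd8 and Hoxd12 lay below the receptor level in control.

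The called genes were split by cluster and direction. In the Hoxd cluster every called gene was higher, 5 of 9 with Pax3 and 3 of 9 with Pax7, with medians of 0.21 and 0.13. In control arrays, Hoxd1, Hoxd3, Hoxd4, Hoxd8 and Hoxd12 averaged below the receptor level, so they had little room to be called lower. Hoxd10 and Hoxd13 lay just above it in control, at 5.58 and 5.65. In the Hoxb cluster every called gene was lower, 7 of 9 with each factor, with medians of -0.53 and -0.76. The Hoxa cluster had 2 genes higher and 7 lower of 10 with each factor. The Hoxc cluster had 1 higher and 6 lower of 9 with Pax3, and 2 higher and 5 lower with Pax7. With Pax3, the shares called were 90% in the Hoxa, 77.8% in the Hoxb, 77.8% in the Hoxc and 55.6% in the Hoxd cluster. Of all genes, 39.6% were called. The share called with Pax7 in the Hoxd cluster, 33.3%, lay below the 43.2% of all genes, and the shares of the other clusters with Pax7 lay above. These counts were not compared between clusters with a test.

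Among the Hoxd genes, Hoxd8, which patterns the trunk, had the largest change of any Hox gene in both comparisons. Its control arrays read 4.72, 4.43 and 4.26, its Pax3 arrays 8.12, 8.33 and 7.93, and its Pax7 arrays 7.35, 7.35 and 7.39. All Pax3 arrays were above all Pax7 arrays, and all control arrays were far below both. The log2 fold change was 3.66 ± 0.12 (moderated SE) with Pax3 and 2.89 ± 0.12 with Pax7, 12.6-fold and 7.43-fold, with limma adjusted p of 1.09e-09 and 3.88e-09. The control level lay below the receptor level, so these folds start from a signal that cannot be told apart from background. Measured from the receptor level, Hoxd8 was at least 6.11-fold higher with Pax3 and at least 3.58-fold higher with Pax7.

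Hoxd9, the next gene of the cluster, was 1.89-fold higher with Pax3 and 1.43-fold higher with Pax7. Its array values, printed because of the change at Hoxd8 and chosen after they were seen, were 6.25, 6.17 and 6.08 in control. They were 7.15, 7.09 and 7.03 with Pax3 and 6.73, 6.77 and 6.56 with Pax7. The 3 groups did not overlap and stood in the order control, Pax7, Pax3. Hoxd4, a gene of the hindbrain and neck, was higher by 0.88 ± 0.07 and 0.77 ± 0.07 log2 units. Its control mean of 5.06 lay below the receptor level, and measured from that level the rise was at least 1.34-fold with Pax3 and 1.23-fold with Pax7.

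Hoxd13 shapes the digits of the limb. Its control arrays read 5.80, 5.69 and 5.44, its Pax3 arrays 6.42, 6.52 and 6.29, and its Pax7 arrays 5.80, 5.80 and 5.71 (also chosen after the values were seen). The Pax3 arrays stood above all others, and the Pax7 arrays overlapped those of control. The log2 fold change was 0.77 ± 0.09 with Pax3, with a limma adjusted p of 3.05e-05. With Pax7 it was 0.13, with a 95% interval of -0.07 to 0.32. Hoxd10 passed with Pax3 at 0.21 ± 0.07, although its arrays overlapped those of control. This call was lost, with adjusted p of 0.0689 to 0.164, without control replicate 1, control replicate 2, Pax3 replicate 2 or Pax3 replicate 3. It was also lost with array medians set equal (limma adjusted p = 0.0663) and with the 6 arrays of these groups alone (0.0745). Hoxd1, Hoxd3, Hoxd11 and Hoxd12 had log2 fold changes between -0.07 and 0.12 and did not pass.

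The 250 bases before the start of Hoxd8 and Hoxd9 are given because these neighbours both rose. The letters are those of RefSeq on GRCm38.p6, read 5′ to 3′ on the plus strand, at chr2:74704365-74704614 for Hoxd8 and chr2:74697513-74697762 for Hoxd9. Capitals mark ATTA on either strand, the core sequence that homeodomains recognise, including those of Hox, Pax3 and Pax7.
Hoxd8: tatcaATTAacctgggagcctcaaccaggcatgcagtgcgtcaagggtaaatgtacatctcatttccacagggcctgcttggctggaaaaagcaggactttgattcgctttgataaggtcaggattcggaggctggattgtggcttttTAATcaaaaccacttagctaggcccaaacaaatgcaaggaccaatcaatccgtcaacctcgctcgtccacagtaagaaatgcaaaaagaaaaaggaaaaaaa
Hoxd9: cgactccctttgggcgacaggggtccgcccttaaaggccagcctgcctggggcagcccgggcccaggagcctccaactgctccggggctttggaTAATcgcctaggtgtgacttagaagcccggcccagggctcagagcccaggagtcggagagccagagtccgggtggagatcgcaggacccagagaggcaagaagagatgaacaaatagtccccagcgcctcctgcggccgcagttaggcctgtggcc
The Hoxd8 window held 2 such matches and 44.4% G and C, and the Hoxd9 window held 1 and 65.2%.

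**Figure D2:**
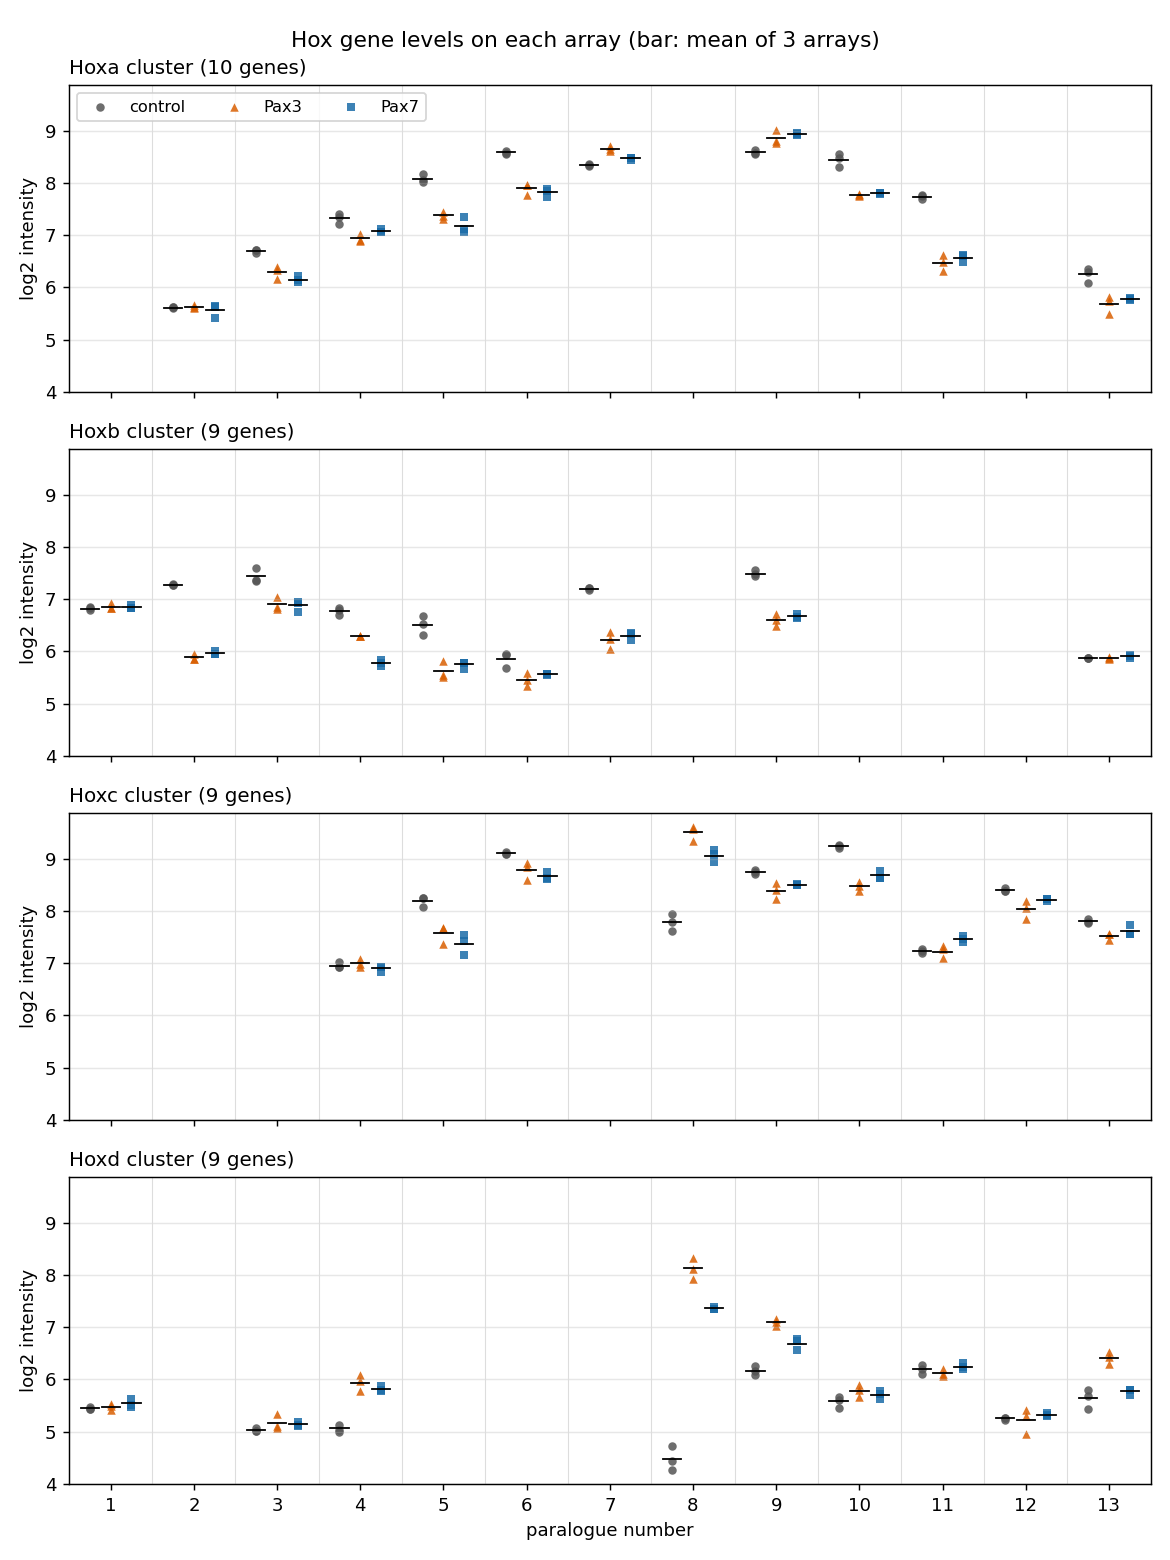
Log2 intensity of each Hox gene on each of the 9 arrays, by paralogue number, in 1 panel per cluster. Circles are control, triangles Pax3 and squares Pax7 arrays, and bars are means of 3 arrays. Levels are to be compared between groups within a gene, since each gene has its own probes. Hoxd8 and Hoxc8 stand apart upwards in the Pax arrays, and Hoxb2 and Hoxa11 downwards.

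In the Hoxc cluster, Hoxc8, a gene of the thorax and of motor neurons to the forelimb, was the paralogue of Hoxd8 that could be measured and was also higher. Control arrays read 7.62, 7.78 and 7.94, Pax3 arrays 9.61, 9.56 and 9.34, and Pax7 arrays 9.09, 9.16 and 8.93. No group overlapped another, and Pax3 arrays were highest. The log2 fold change was 1.73 ± 0.09 with Pax3 and 1.28 ± 0.09 with Pax7, with limma adjusted p of 7.56e-08 and 6.44e-07. The genes on both sides of Hoxc8 in number fell: Hoxc6 (-0.33 and -0.45), and Hoxc9 (-0.36 and -0.24). Hoxc5 fell (-0.62 and -0.82), and Hoxc10, a gene of the lumbar region and hindlimb, also fell (-0.77 and -0.56). Hoxc13, which acts in hair follicles, fell (-0.28 and -0.19).

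Hoxc11 was at -0.01 with Pax3 and rose by 0.23 ± 0.06 with Pax7. Hoxc12 fell by 0.37 ± 0.07 with Pax3 and was at -0.19 with Pax7, where the limma adjusted p was 0.0523 and the arrays did not overlap those of control. It passed with Pax7 under 6 of 15 alternatives, with adjusted p of 0.0024 to 0.0459. Hoxc4 had log2 fold changes of 0.04 and -0.05 and did not pass. With Pax7, the call of Hoxc9 was lost without control replicate 2 (limma adjusted p = 0.0519). That of Hoxc13 was lost without control replicate 2, Pax7 replicate 2 or Pax7 replicate 3, with adjusted p up to 0.0936.

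In the Hoxb cluster, an unbroken run by number of the measured genes from Hoxb2 to Hoxb9 was lower with both factors, while the end members Hoxb1 and Hoxb13 did not pass. Hoxb2, a gene of the hindbrain, fell most. Control arrays read 7.27, 7.29 and 7.27, Pax3 arrays 5.86, 5.85 and 5.96, and Pax7 arrays 6.0, 5.95 and 5.95. Control arrays stood well above both Pax groups, which overlapped. The log2 fold change was -1.39 ± 0.04 with Pax3 and -1.31 ± 0.04 with Pax7, or 2.62-fold and 2.48-fold lower, with limma adjusted p of 1.26e-09 and 1.12e-09.

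Hoxb4, known for its effect on blood stem cells, fell by different amounts with the 2 factors. Control arrays read 6.69, 6.84 and 6.80, Pax3 arrays 6.29 on all 3, and Pax7 arrays 5.72, 5.83 and 5.78. The groups did not overlap, and Pax7 arrays were lowest. The log2 fold change was -0.49 ± 0.05 with Pax3 and -1.0 ± 0.05 with Pax7, with limma adjusted p of 1.17e-05 and 2.24e-08. The 3 Pax3 values of Hoxb4 were equal to all deposited digits, as was so for 340 of 19661 genes in Pax3 arrays, so they give no spread of their own, and the error comes from the other groups and the limma prior. Hoxb3 fell (-0.53 and -0.56), Hoxb5 (-0.88 and -0.76), Hoxb6 (-0.40 and -0.30), Hoxb7 (-0.99 and -0.90), and Hoxb9 (-0.89 and -0.82). Hoxb6 ended below the receptor level in Pax3 arrays, at 5.46. The probe set shared by Hoxb8 and Hoxb7 read 5.02, 5.14 and 5.20 in control, 4.80, 4.79 and 4.86 with Pax3, and 4.79, 4.86 and 4.73 with Pax7. It was not tested, and all its values lay below the receptor level.

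In the Hoxa cluster, Hoxa7 and Hoxa9 in the middle rose, and the other measured genes except Hoxa2 fell. Hoxa7 was higher by 0.32 ± 0.04 with Pax3 and 0.12 ± 0.04 with Pax7, and Hoxa9 by 0.26 ± 0.06 and 0.34 ± 0.06. Hoxa3, which is needed for thymus and parathyroid, fell (-0.40 and -0.54), and Hoxa4 (-0.38 and -0.24). Hoxa5 fell (-0.71 and -0.92), and Hoxa6 (-0.68 and -0.77). Hoxa10 fell (-0.67 and -0.64), and Hoxa13, the counterpart of Hoxd13 at the tip of the limb, also fell (-0.57 and -0.47). Hoxa2 had log2 fold changes of 0.02 and -0.05. With Pax7 the call of Hoxa7 was lost without control replicate 1, control replicate 2, Pax7 replicate 1 or Pax7 replicate 2, with limma adjusted p up to 0.0853.

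Hoxa11 patterns the forearm and is expressed in limb muscle precursors. Control arrays read 7.70, 7.75 and 7.77, Pax3 arrays 6.31, 6.63 and 6.49, and Pax7 arrays 6.48, 6.61 and 6.63. Control arrays were above all others, and the Pax groups overlapped. The log2 fold change was -1.27 ± 0.08 with Pax3 and -1.17 ± 0.08 with Pax7, with limma adjusted p of 1.56e-07 and 2.2e-07. Among antisense transcripts of the clusters, picked after values were seen, Hoxaas2 fell (-0.42 ± 0.11 and -0.49 ± 0.11). Hoxd3os1 was at 0.15 and 0.02 and did not pass.

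The windows of Hoxa11 (chr6:52245811-52246060, minus strand) and Hoxb4 (chr11:96318017-96318266, plus strand) are shown in the same way, as genes that fell by at least 1 log2 unit with 1 or both factors.
Hoxa11: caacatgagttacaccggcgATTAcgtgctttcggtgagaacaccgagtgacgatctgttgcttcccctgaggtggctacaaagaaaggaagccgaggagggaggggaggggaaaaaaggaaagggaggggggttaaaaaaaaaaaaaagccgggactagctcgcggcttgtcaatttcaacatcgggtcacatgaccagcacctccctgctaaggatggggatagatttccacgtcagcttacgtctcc
Hoxb4: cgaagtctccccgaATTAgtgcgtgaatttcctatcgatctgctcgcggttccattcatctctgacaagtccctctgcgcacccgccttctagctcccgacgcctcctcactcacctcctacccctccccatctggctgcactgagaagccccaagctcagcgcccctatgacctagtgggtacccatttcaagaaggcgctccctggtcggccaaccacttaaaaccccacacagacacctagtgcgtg
Each held ATTA 1 time. The table held 23 windows for 21 measured Hox genes, with 2 each for Hoxa10 and Hoxd11 and none used here for Hoxc8 and Hoxb2. ATTA on either strand was in 17 of the 23 (73.9%) and in 54.9% of all 32851 windows of the same length. TAAT and ATTA with 2 bases between them, a palindrome that paired-class homeodomains bind as dimers and that overlaps the ATTA matches, was in 0 of 23 and in 0.384% of all. TGATNNAT, a sequence bound by Pbx with Hox, was in 3 of 23 (13%) and in 7.68% of all. Windows were not matched for base composition, and a match of letters does not show binding.

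By paralogue number, all 3 genes of group 5 and all 3 of group 6 were lower with both factors. Of all genes, 19.7% were lower with Pax3 and 21.5% with Pax7. The measured genes of group 8, Hoxc8 and Hoxd8, were higher, and Hoxb8 had no probe set of its own. In group 9, Hoxa9 and Hoxd9 were higher and Hoxb9 and Hoxc9 lower with each factor. In group 4, Hoxd4 was higher, Hoxa4 and Hoxb4 were lower and Hoxc4 did not pass. In group 13, Hoxa13 and Hoxc13 were lower with both factors, Hoxd13 was higher with Pax3 and Hoxb13 did not pass. Among the 7 genes numbered 1 to 3, 3 were lower with each factor and 4 did not pass. Their share called, 42.9% with each factor, was near the 39.6% and 43.2% of all genes. Among the 14 numbered 4 to 8, 4 were higher and 9 lower with each (92.9% called). Among the 16 numbered 9 to 13, 4 were higher and 8 lower with Pax3 (75% called), and 3 were higher and 7 lower with Pax7 (62.5%).

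Compared directly, Pax7 and Pax3 arrays differed in 8 Hox genes (21.6%), 2 higher and 6 lower in Pax7, beside 16.9% of all genes, 8.33% higher and 8.54% lower. In log2 units, Pax7 minus Pax3, Hoxd8 differed by -0.76 ± 0.12, Hoxd13 by -0.64 ± 0.09, Hoxb4 by -0.52 ± 0.05, Hoxc8 by -0.45 ± 0.09, Hoxd9 by -0.41 ± 0.07 and Hoxa7 by -0.19 ± 0.04, with limma adjusted p between 3.14e-05 and 0.00714. Of the 6 genes that were higher than control with both factors, Hoxa7, Hoxc8, Hoxd8 and Hoxd9 were thus higher with Pax3 than with Pax7. No called change reached 1 log2 unit, as 0.895% of all genes did. The arrays did not overlap for 10 Hox genes, beside 29.4% of all genes. Tested against a fold change of 1.2, 3 Hox genes were lower in Pax7 arrays, beside 3.99% of all genes in either direction.

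Hoxc10 and Hoxc11 were higher in Pax7 arrays, by 0.21 ± 0.06 and 0.24 ± 0.06 (limma adjusted p of 0.0335 and 0.0231). Both calls were lost with the 6 arrays of these groups alone (0.0774 and 0.059). That of Hoxc10 was also lost without Pax3 replicate 1, Pax3 replicate 3, Pax7 replicate 1 or Pax7 replicate 2, with adjusted p up to 0.133. That of Hoxc11 was lost without Pax7 replicate 1 or Pax7 replicate 3, with adjusted p up to 0.0952. The 29 other Hox genes did not pass, and their 95% intervals lay between -0.44 and 0.34 log2 units. Among them, Hoxb2 had an interval of -0.02 to 0.18 and Hoxa11 one of -0.07 to 0.27.

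**Figure D3:**
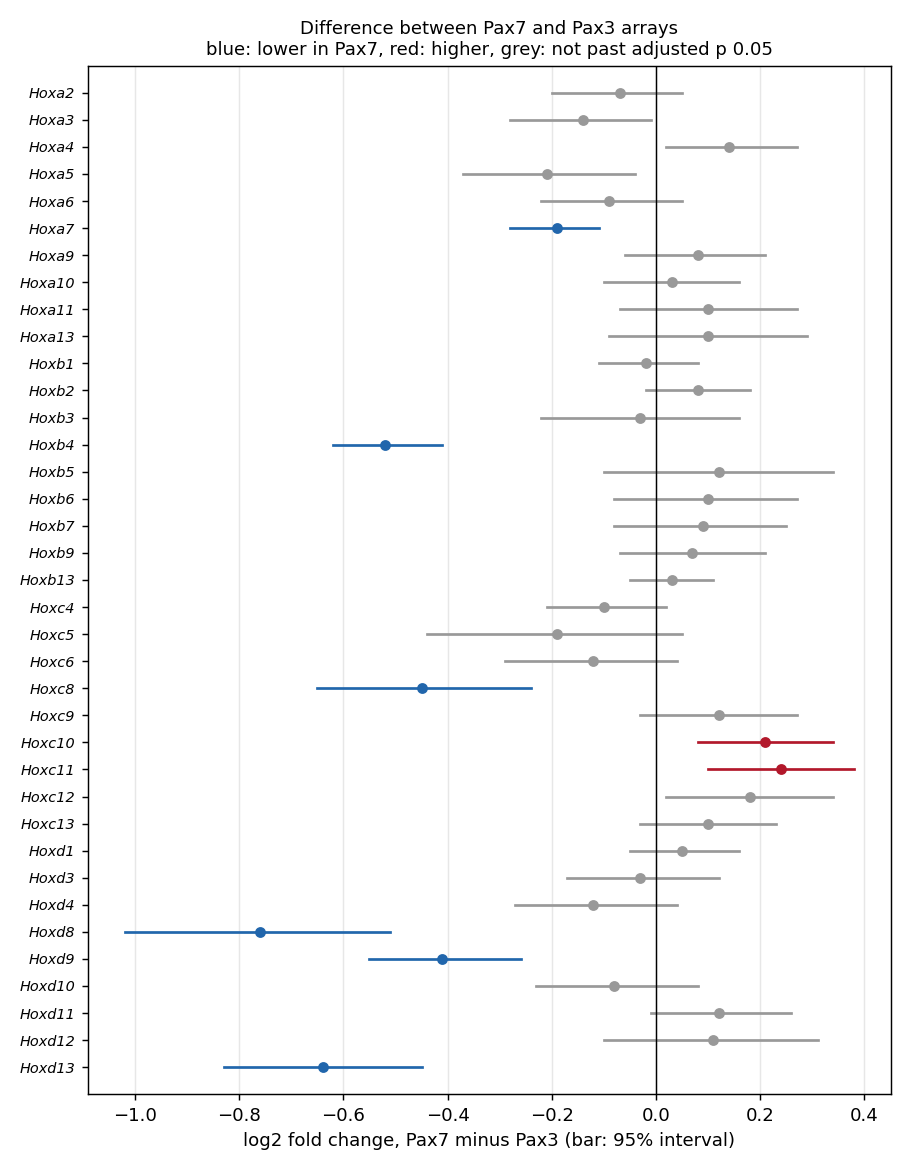
Log2 fold change of Pax7 over Pax3 arrays for the 37 Hox genes, with 95% intervals from the limma fit (n = 3 arrays per group). Blue marks genes called lower in Pax7 arrays, red genes called higher and grey those that did not pass. Hoxd8, Hoxd13 and Hoxb4 lie farthest from 0.

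The mRNAs of Hox partners of the Pbx, Meis and Pknox families were also measured. Of 8 genes, 3 were higher and 4 lower with Pax3 (87.5% called, beside 39.6% of all genes), and 2 were higher and 3 lower with Pax7 (62.5%, beside 43.2%). Meis1, a Hox partner in blood and limb, read 6.65, 6.68 and 6.68 in control, 7.95, 7.99 and 7.85 with Pax3, and 8.30, 8.27 and 8.30 with Pax7. It stood in the order control, Pax3, Pax7 with no overlap, and log2 fold changes were 1.26 ± 0.04 and 1.62 ± 0.04. Its paralogue Meis2 went the other way, by -1.14 ± 0.07 and -1.74 ± 0.07. Pknox2 fell (-1.77 ± 0.05 and -2.22 ± 0.05), and its mean of 5.48 with Pax7 lay below the receptor level. Meis3 rose by 0.33 and 0.51, and Pknox1 fell (-0.33 and -0.37). Between Pax7 and Pax3, Meis1 was higher by 0.36 and Pbx3 by 0.17, and Meis2 and Pknox2 were lower (-0.60 and -0.46). Pbx2 passed as higher with Pax3 (0.14) and Pbx4 as lower with Pax3 (-0.27), and neither passed with Pax7 (0.06 and -0.11). Pbx3 was at -0.05 and 0.12 and did not pass against control.

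**Figure D4:**
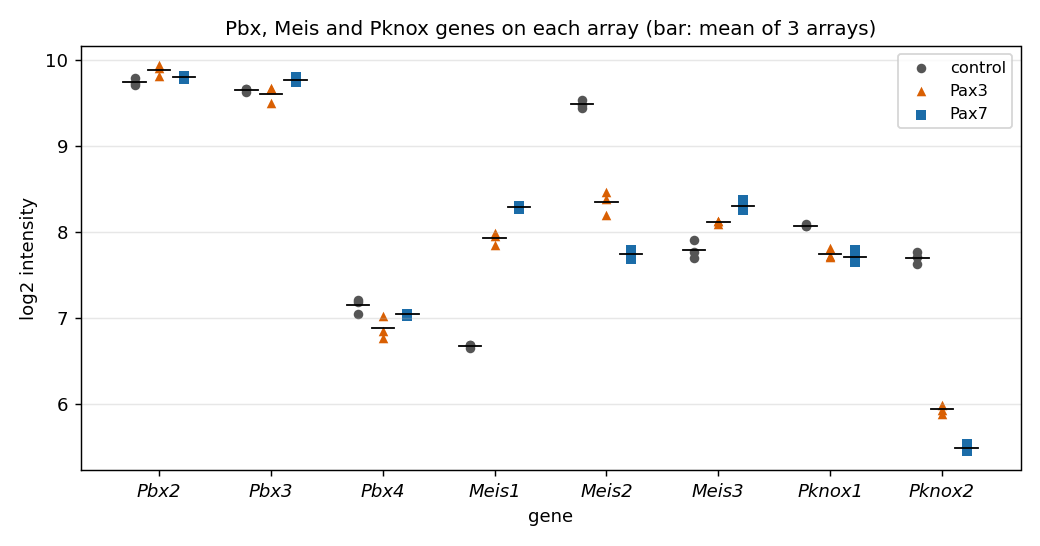
Log2 intensity of the 8 measured Pbx, Meis and Pknox genes on each of the 9 arrays, with bars at the mean of 3 arrays. Meis1 lies higher and Meis2 and Pknox2 lower in both Pax groups than in control, and the Pax7 arrays lie farthest from control in each.

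Of 26 measured Polycomb genes, 3 were higher and 9 lower with Pax3, and 3 were higher and 13 lower with Pax7. The shares called were 46.2% and 61.5%, beside 39.6% and 43.2% of all genes. Jarid2, which helps to bring the H3K27 methyltransferase complex to its targets, fell (-0.98 and -1.46). The methyltransferase genes moved apart: Ezh1 rose by 0.61 and 0.92, and Ezh2 fell (-0.11 and -0.40). Bmi1, a subunit of the second Polycomb complex, fell (-0.45 and -0.68), while its relative Pcgf2 rose by 0.31 and 0.48. The median over the list was -0.06 and -0.12. Between Pax7 and Pax3, 2 Polycomb genes were higher and 4 lower (23.1% called). Of all genes, 16.9% were called in this comparison, 8.33% higher and 8.54% lower.

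Of 15 measured Trithorax genes, 2 were higher and 4 lower with Pax3, and 1 was higher and 6 lower with Pax7. The shares called, 40% and 46.7%, were near those of all genes, 39.6% and 43.2%. The methyltransferase gene Kmt2c fell (-0.39 and -0.63), and the H3K27 demethylase gene Kdm6a rose by 0.34 and 0.23. Kdm6a lies on the X chromosome and escapes X inactivation. The groups differ from control in sex-linked genes too, and the cause of the Kdm6a difference was not tested. Kdm6b, an autosomal relative of Kdm6a, fell (-0.28 and -0.30).

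Of 22 measured genes of Cdx, Gdf11 and retinoic acid signalling, which set Hox expression in the embryo, 5 were higher and 6 lower with Pax3, and 3 were higher and 6 lower with Pax7. The shares called were 50% and 40.9%, beside 39.6% and 43.2% of all genes. Rxrg, a retinoid X receptor gene, fell (-1.13 and -1.25). Stra6, a retinol transporter gene, fell (-0.72 and -0.69), and Rara fell (-0.44 and -0.41), while the receptor gene Rarg rose by 0.50 and 0.69. Gdf11, whose product shifts Hox expression towards the tail, fell (-0.57 and -0.35). Cdx4, Rarb, Aldh1a1, Aldh1a2 and Cyp26a1 lay above the receptor level in no group.

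Of 29 measured genes beside or inside the clusters, 3 were higher and 4 lower with Pax3 (24.1% called, beside 39.6% of all genes), and 5 were higher and 8 lower with Pax7 (44.8%, beside 43.2%).  Snx10, beside the Hoxa cluster, rose by 0.61 and 1.12. Lnpk, Atf2 and Mtx2 beside the Hoxd cluster had log2 fold changes of 0.04 to 0.13, of which that of Mtx2 with Pax7 passed. Atp5g3, from the same list, fell (-0.25 and -0.32). The neighbours of the Hoxb cluster included Snx11, at 0.13 with Pax3 and 0.44 with Pax7, and Nfe2l1, at 0.02 and 0.04. Cbx1, from the same side list, was at -0.05 and -0.22. Snx11 and Cbx1 passed with Pax7 alone. Beside the Hoxc cluster, Cbx5 fell (-0.17 and -0.32), as did Copz1 (-0.18 and -0.17). Smug1 (-0.02 and -0.23) and Calcoco1 (-0.11 and -0.29) passed as lower with Pax7 alone, and Nfe2 (-0.05 and 0.05) did not pass.

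The clusters also hold the microRNA genes of the miR-10 and miR-196 families, and miR-196 is known to act on mRNAs of Hox genes, among them Hoxb8 and Hoxc8. The mature sequences are printed to show the seeds, bases 2 to 8 in capitals, that the members of a family share.
mmu-miR-10a-5p: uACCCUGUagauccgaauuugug
mmu-miR-10b-5p: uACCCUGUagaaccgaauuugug
mmu-miR-196a-5p: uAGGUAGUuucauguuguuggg
mmu-miR-196b-5p: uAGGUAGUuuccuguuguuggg
Counted from the 5′ end, the miR-10 sequences differ by U12A and the miR-196 sequences by A12C, outside the seed in both families. The probe sets read hairpin or host transcripts and not these mature forms. Mir196b, in the Hoxa cluster, was at 5.60 in control and rose by 0.20 and 0.32. Mir10a, in the Hoxb cluster, fell (-0.23 and -0.26), but lay below the receptor level in all groups, as did Mir10b, Mir196a-1 and Mir196a-2.

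Markers of other cell types were counted in the same way, beside 39.6% of all genes called with Pax3 and 43.2% with Pax7. The shares called with Pax3 and then Pax7 were 75% and 75% of the smooth muscle and pericyte genes. They were 50% and 62.5% of the epithelial genes and 50% and 50% of the Schwann and neural genes. Of 8 smooth muscle and pericyte genes, 6 were lower with both factors, led by Mcam, Cspg4 and Notch3, and their summed linear intensity was 3034 to 3388 in control, 854 to 886 with Pax3 and 750 to 773 with Pax7. Rgs5 lay above the receptor level in no group. Of 8 epithelial genes, 4 were higher with Pax3 and 5 with Pax7, led by Dsp and Krt18, with sums of 519 to 568, 1794 to 1825 and 2377 to 2547. Cdh1, the defining epithelial cadherin, lay above the receptor level in no group. Of 6 Schwann and neural genes, 2 were higher and 1 lower with each factor, with sums of 413 to 438, 2682 to 2790 and 2590 to 2832. Nefl rose from 5.55 to 11.23 and 11.17 and weighs most in the sums of the Pax3 and Pax7 arrays. Gap43 was also called higher (0.20 and 0.41). The gene called lower was Tubb3, which averaged 6.76 in control, 5.75 with Pax3 and 6.03 with Pax7. S100b lay above the receptor level in no group.

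The shares called were 12.5% and 25% of leukocyte genes, 25% and 37.5% of endothelial genes and 33.3% and 44.4% of fibroblast genes. These lay below or near the 39.6% and 43.2% of all genes. Of 8 leukocyte genes, Cd68 was higher with Pax3, and with Pax7 Cd68 was higher and Cd14 lower. The sums were 363 to 408, 639 to 650 and 872 to 913. Cd68, the brightest of these genes, weighs most in them and read 7.36 in control, 8.72 with Pax3 and 9.40 with Pax7. No other leukocyte gene was called higher, and Ptprc, Csf1r, Adgre1, Lyz2 and Itgam lay above the receptor level in no group. Of 8 endothelial genes, 2 were higher with Pax3 and 3 with Pax7, with sums of 435 to 441, 523 to 559 and 617 to 624. The called genes were Egfl7 (0.63 and 1.05) and Tek (0.38 and 0.74), and Cdh5 with Pax7 alone (0.18). Kdr, Emcn and Esam lay above the receptor level in no group. Of 9 fibroblast genes, 2 were higher and 1 lower with Pax3, and 3 were higher and 1 lower with Pax7, with sums of 1204 to 1230, 1532 to 1712 and 1788 to 1905. Among them Gsn, the brightest, weighs most in the sums and rose by 0.81 and 1.18. The collagen gene Col3a1 fell (-0.26 and -0.88). Dpt, Lum, Dpp4 and Pi16 lay above the receptor level in no group. The part of these differences in the Hox results was not tested. In such bulk RNA, fewer cells that express a gene and less RNA per cell cannot be told apart.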

How the data were processed

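RNA of 9 samples was measured on Affymetrix gene arrays. Per the submitters' processing notes, the authors deposited log2 intensities made with RMA in R 2.10.0, over 25668 probe sets, ranging from 1.93 to 13.23, with array medians of 6.397 to 6.477. The sources used here do not give the build or annotation. The number of arrays limits precision.

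Probe sets were named from the platform annotation (20777 with 1 symbol, 232 with several, 4659 with none). The brightest per gene was kept, giving 19661 genes. From these log2 values, limma 3.58.1 in R 4.3.3 fitted 1 mean per group over 9 arrays, with Benjamini-Hochberg adjustment over all genes and a threshold of 0.05. Residual df were 6, prior df 4.37 and prior SD 0.0677, and intervals are 95%. The fit was checked on simulated data. The 13 gene lists held 180 genes, of which 161 were measured.

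Array values are printed for Hox genes called with a change of at least 1 log2 unit. From other lists up to 4 called genes with the largest change per comparison are named. Others were named after values were seen, among them Pbx2, Rara, Atp5g3, Lnpk, Atf2, Mtx2, Nfe2l1, microRNAs and genes near background. So were Cbx1, Cbx5, Copz1, Smug1, Calcoco1 and Nfe2. Hox genes and lists were chosen with earlier results of these data known. Alternatives were the filter on dim genes, scaling, prior, probe choice, threshold, replicate block, groups fitted and each array left out. Sequences are from RefSeq tables of GRCm38.p6, with windows of 250 bases before the start.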

Additional observations from a re-analysis of the deposited data

Results flagged for a closer look

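In 8 Hox genes (21.6%, beside 16.9% of all genes) the difference from control was not the same in Pax7 as in Pax3 arrays. The limma test of this is the comparison of Pax7 with Pax3 arrays. The difference in log2 units, Pax7 minus Pax3, was -0.19 for Hoxa7, -0.52 for Hoxb4, -0.45 for Hoxc8, 0.21 for Hoxc10, 0.24 for Hoxc11, -0.76 for Hoxd8, -0.41 for Hoxd9 and -0.64 for Hoxd13. For Hoxa7, Hoxc8, Hoxd8 and Hoxd9 both factors were higher than control and Pax3 was the higher. For Hoxb4 both were lower and Pax7 was the lower, and for Hoxc10 both were lower and Pax3 was the lower. For Hoxd13 and Hoxc11 a single factor differed from control past the threshold. The calls of Hoxc10 and Hoxc11 between Pax7 and Pax3 were lost in 4 and 2 of the 6 fits without 1 of these arrays.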

How the results depend on the processing

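No Hox call changed direction under any alternative run, and the probe choice leaves the Hox genes as they are. Without the lowest 50% of genes by mean, 18 Hox genes were left, 7 of the Hoxa, 2 of the Hoxb, 9 of the Hoxc and 0 of the Hoxd cluster. With Pax3 3 were higher and 13 lower (median -0.38), with Pax7 4 were higher (median -0.34), and 3 were lower between Pax7 and Pax3. These counts and medians cover only the 18 genes left, with no Hoxd gene among them. With genes above the receptor level alone, the Pax7 median was -0.24. Against a fold change of 1.2, with Pax3 5 were higher and 13 lower, with Pax7 4 were higher, and between Pax7 and Pax3 0 were higher and 3 lower. With only the arrays of those groups, 0 were higher in Pax7 than in Pax3; the cause was not tested. Leaving out each array gave 7 to 8 higher, 20 lower and medians of -0.36 to -0.25 with Pax3. It gave 6 to 7 higher, 17 to 19 lower and medians of -0.24 to -0.17 with Pax7, and 0 to 3 higher, 6 to 9 lower and medians of -0.02 to 0.04 between Pax7 and Pax3. Of the called genes, 27 of 28, 23 of 26 and 6 of 8 kept their call each time.

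Deviations of arrays with equal replicate numbers correlated at -0.026 to 0.225, and those of unequal numbers at -0.247 to 0.246. With 3 arrays per group this cannot exclude a pairing. With the replicate block, 8 Hox genes were higher and 20 lower with Pax3, 7 higher and 20 lower with Pax7, where Hoxc12 joined (limma adjusted p = 0.0372, as it did under 5 other alternatives), and 2 higher and 6 lower between them.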
